A study of Mus musculus with 2 samples.

Results

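The genes described here are 10 genes of the heart's response to stretch and load: the muscle ankyrin repeat genes Ankrd1, Ankrd2 and Ankrd23, the Xin repeat genes Xirp1 and Xirp2, the LIM-only genes Fhl1 and Fhl2, the matricellular genes Ccn1 and Ccn2, and the transcription factor gene Tead1. They were chosen by symbol and were 10 of 55536 mouse genes in the gene tables. Their levels were measured by total RNA sequencing of heart tissue from 2 adult male B6CASTF1/J mice, the first-generation cross of the C57BL/6 and CAST strains, aged 8 to 10 months. Both libraries belong to 1 group with no treatment or second genotype, so the data answer how high each gene stood, which transcripts it used and how far the 2 hearts differed. The labels name animal 2 for replicate 1 and animal 4 for replicate 2, and number them as biological replicates, yet carry a single donor entry for both. They were taken as 2 animals, and the spread given below is that between these 2 libraries.

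As background, a beating muscle cell senses force through titin, the giant spring of the sarcomere, and through the intercalated disc that joins it to its neighbour. Ankyrin repeat and LIM-only proteins sit on titin and can also enter the nucleus, while Xin repeat proteins bind actin at the disc. In parallel, force on the cytoskeleton lets the cofactors YAP and TAZ enter the nucleus, where they bind TEAD factors and switch on targets such as Ankrd1, Ccn1 and Ccn2, and the Hippo kinase cascade holds YAP and TAZ back.

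Mouse genes held 42.05 M expected counts in replicate 1 and 39.98 M in replicate 2, which was 99.8% of all counts in each. Each of the 8 cardiomyocyte markers tabulated was read, with a median of 3327 ± 188 TPM (an abundance per transcript length, scaled to a fixed sum in each library). Throughout, ± is the SD over 2 libraries (n = 2), and no p-value is given because the smallest that an exact sign-flip test allows with 2 libraries is 0.5. The levels are of bulk tissue, in which fewer cells of a type and less RNA per cell cannot be told apart.

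Fhl2 stood highest of the 10 genes and Ankrd2 lowest, and the genes between them covered a wide range of levels. The mean order was Fhl2, Ankrd1, Ankrd23, Xirp2, Tead1, Fhl1, Xirp1, Ccn1, Ccn2 and Ankrd2. No neighbours in this order overlapped between libraries, and the ranges came near each other for Ankrd23, at 161 TPM in its lower library, and Xirp2, at 157 TPM in its higher one, and for Fhl1, at 52.94 TPM, and Xirp1, at 50.03 TPM. A separate transcript quantification deposited for the same libraries, called here the second quantification, gave the same order of means, but there the ranges of Ankrd23 and Xirp2 overlapped. Of the 10 genes, 9 reached 1 TPM in both libraries, against 10755 of 22015 nuclear protein-coding genes. Together the 10 genes made up 1609 TPM in replicate 1 and 1678 TPM in replicate 2, of which Fhl2 held 42.7% and Ankrd1 24.2% on average.

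**Figure D1:**
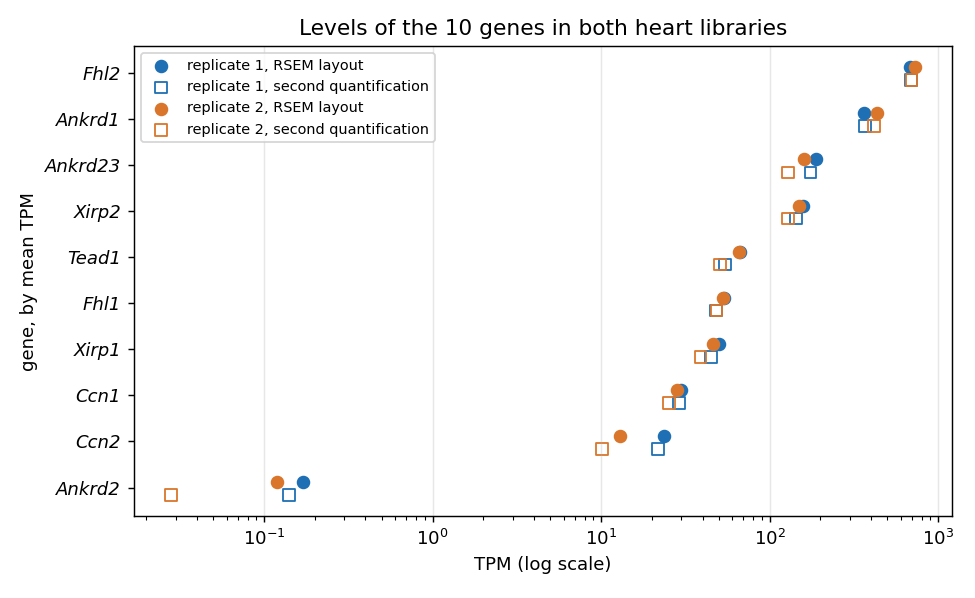
TPM on a log scale for each of the 10 genes, with filled circles for the main quantification and open squares for the second, coloured by library. Fhl2 lies at 678 and 725 TPM, while Ankrd2 lies at 0.17 and 0.12 TPM, apart from the other 9 genes.

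Among the muscle ankyrin repeat genes, Ankrd1 was abundant, Ankrd23 was about 2.28-fold lower per length, and Ankrd2 was close to the limit of detection. Ankrd1 encodes CARP, which binds the N2A region of titin and acts as a transcriptional cofactor. The gene (ENSMUSG00000024803.9, chr19:36111961-36120099, minus strand, mm10) had 22917 and 26093 expected counts, or 362 and 435 TPM, in replicates 1 and 2. Its mean of 398 ± 52.1 TPM ranked 124 among nuclear protein-coding genes. The second quantification gave a mean of 391 TPM.

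Ankrd23 encodes DARP, a second titin-binding ankyrin repeat protein. The gene (ENSMUSG00000067653.12, chr1:36530188-36536883, minus strand) had 12795 and 10321 expected counts, or 188 and 161 TPM, with a mean of 175 ± 19.2 TPM and rank 299. The ratio of Ankrd1 to Ankrd23 was 0.94 on the log2 scale in replicate 1 and 1.43 in replicate 2 (mean 1.19 ± 0.348), so Ankrd1 was higher in both libraries but by a margin that differed between them. The value of Ankrd23 carries an uncertainty that the other members do not share. Gm42417, annotated as protein-coding, overlaps it on the same strand at chr1:36530193-36539429, and 76.2% of the 31-base words in Ankrd23 transcripts also occur in Gm42417. How reads were divided between them is a model estimate, and Ankrd23 was the only one of the 10 genes with fractional expected counts in both libraries. Gm42417 was given 739 and 609 expected counts, 5.83% of those given to Ankrd23 over both libraries. Per length this was 115 and 101 TPM in the main quantification, beside 188 and 161 TPM for Ankrd23, and 45.6 and 41.4 TPM in the second. For each of the other 9 genes, words shared with any other gene made up at most 1.53%, the value of Fhl1.

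Ankrd2 encodes the ankyrin repeat protein best known from skeletal muscle, where stretch induces it. The gene (ENSMUSG00000025172.3, chr19:42036000-42045110, plus strand) had 6 and 4 expected counts, or 0.17 and 0.12 TPM (mean 0.145 ± 0.0354), and ranked 13563. On this scale Ankrd1 stood 2777-fold above Ankrd2, a log2 ratio of 11.44 ± 0.544. The size of that ratio rests on those few counts, and with 1 TPM added to both genes it was 8.44 on the log2 scale. The coding sequences of the 3 genes are similar but distinct: aligned bases were 62.1% identical between Ankrd1 and Ankrd2, 61.3% between Ankrd1 and Ankrd23, and 62.5% between Ankrd2 and Ankrd23. For Ankrd23 the frame used was that of Ankrd23-202, with 576 bases, and not the longest annotated one, of 306 codons. No 31-base word of Ankrd2 transcripts occurs in another gene of this annotation. The main quantification put all Ankrd2 reads on Ankrd2-202, and the second put its 5 and 1 estimated counts on Ankrd2-201.

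The 9 genes listed as partners of these proteins all reached 1 TPM in both libraries, with a median of 238 ± 3.84 TPM. None was called as differing between the hearts, under a rule given below that called only 1.08% of all tested genes. The highest were Ttn, which encodes titin, at 1243 ± 105 TPM, Tcap, the cap of titin at the Z-disc, at 895 ± 194 TPM, Des, the muscle intermediate filament desmin, at 454 ± 19.8 TPM, and Casq2, the calcium store protein of the sarcoplasmic reticulum, at 344 ± 18.5 TPM.

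Ankrd1 was divided over several transcripts that differ by short stretches at exon edges and by where they start. Ankrd1-205, with 319 codons, held 46.2% ± 1.17 of the gene's TPM in the main quantification and 80.5% ± 2.47 in the second. Ankrd1-203, annotated as a target of nonsense-mediated decay, held 28.6% ± 2.80 in the main and 4.30% ± 3.42 in the second. Ankrd1-201, with 315 codons, held 15.7% ± 0.481 and 8.72% ± 0.0782. Ankrd1-205 starts at 36120099 and the other 2 at 36119910, which makes its first exon longer by more bases than any stretch printed below. What the shares turned on was not tested. Printed here are the short stretches inside the transcripts, of which the 12 bases set Ankrd1-201 apart and the 15 bases Ankrd1-203. Each is given 5′ to 3′ along the transcript with the distinguishing bases in capitals and the joined neighbouring exon bases in lower case.

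Ankrd1-205, 12 coding bases absent from Ankrd1-201 (chr19:36114977-36114988): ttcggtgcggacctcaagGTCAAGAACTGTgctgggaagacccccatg

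Ankrd1-203, 15 bases added at an exon edge (chr19:36116756-36116770): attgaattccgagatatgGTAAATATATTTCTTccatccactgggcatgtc

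Ankrd1-201, 13 bases at the same junction, absent from Ankrd1-203 (chr19:36115559-36115571): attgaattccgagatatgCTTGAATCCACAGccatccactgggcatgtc

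The 12 bases keep the reading frame, and transcripts that hold them made up 84.3% ± 0.482 of the TPM of transcripts that span the site in the main quantification and 91.3% ± 0.0782 in the second. At the other junction, the 15 bases begin right after the same 18 bases, attgaattccgagatatg, that precede the 13 bases, and the same bases follow both. Ankrd1-203 carries the first and lacks the second, which leaves a reading frame of 202 codons. The transcript with the 15 bases was below 50% of the gene in both libraries and both quantifications, and its share differed more between quantifications than between libraries.

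In Ankrd23 the leading transcript was Ankrd23-202, with 81.4% ± 0.134 in the main quantification and 67.1% ± 2.12 in the second. Its annotated reading frame has 192 codons. Ankrd23-204, with 273 codons and a separate first exon, held 18.5% ± 0.156 and 5.79% ± 2.00. Ankrd23-201, whose reading frame of 306 codons is the longest annotated for the gene, was listed at 0 in the main quantification and held 0.463% in the second. The second quantification placed 26.7% ± 0.775 on the noncoding Ankrd23-203, which held 0.125% in the main.

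Both Xin repeat genes were well above the detection limit, and Xirp2 stood 3.19-fold above Xirp1. Their proteins bind actin through Xin repeats and anchor it at the intercalated disc, with Xirp2 also called Xin-beta or myomaxin. Xirp2 (ENSMUSG00000027022.13, chr2:67446002-67526614, plus strand) had 65019 and 58464 expected counts, the most of the 10 genes, which is 157 and 150 TPM given its length of 11979 bases. Its mean was 154 ± 5.23 TPM and its rank 342. Xirp1 (ENSMUSG00000079243.3, chr9:120013755-120023598, minus strand) had 9990 and 8709 expected counts, or 50.03 and 46.22 TPM, with a mean of 48.1 ± 2.69 TPM and rank 1064.

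The ratio of Xirp2 to Xirp1 was nearly the same in both hearts, 1.65 and 1.70 on the log2 scale (mean 1.68 ± 0.0316), and was 1.69 in the second quantification. From counts with no correction for length it was 2.72. Cx3cr1, a macrophage receptor gene whose annotated span on the same strand covers Xirp1, had 39 and 92 expected counts. The 9 listed partners of Xin proteins all reached 1 TPM in both libraries, with a median of 97.3 ± 6.36 TPM. The highest were Actn2, the Z-disc crosslinker alpha-actinin, at 695 ± 35.4 TPM, and the disc genes Ctnnb1, encoding beta-catenin, at 150 ± 3.27 TPM and Cdh2, encoding N-cadherin, at 109 ± 6.89 TPM, followed by the thin filament gene Nebl at 107 ± 7.54 TPM.

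Xirp1 and Xirp2 each came almost wholly from 1 transcript. Xirp1-201, with 1132 codons, held 100% of the gene in both quantifications. Xirp2-202 held 100% in the main quantification and 99.99% in the second, against Xirp2-201. The pair differ in their coding part by 16 bases at the edge of an exon that both share, a length that is not a multiple of 3. With these bases the annotated reading frame of Xirp2-202 has 3283 codons, and without them that of Xirp2-201 has 3784. The 16 bases are printed in capitals because they were placed in nearly all Xirp2 RNA of both hearts.

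Xirp2-202, 16 bases added at an exon edge (chr2:67519220-67519235): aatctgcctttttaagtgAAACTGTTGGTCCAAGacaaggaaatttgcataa

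The FHL genes stood far apart, with Fhl2 13.2-fold above Fhl1. Both encode proteins built only of LIM domains, which bind titin. FHL2 also tethers metabolic enzymes to the sarcomere and acts as a transcriptional cofactor, and FHL1 links titin to the Raf, MEK and ERK kinases. Fhl2 (ENSMUSG00000008136.14, chr1:43123074-43196984, minus strand) had 33400 and 33656 expected counts, or 678 and 725 TPM. Its mean of 702 ± 33.4 TPM ranked 56 among 22015 coding genes. Fhl1 (ENSMUSG00000023092.16, chrX:56731787-56793346, plus strand) had 3568 and 3277 expected counts, or 53.4 and 52.9 TPM, with a mean TPM whose SD was 0.559% of it and rank 955.

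The log2 ratio of Fhl2 to Fhl1 was 3.67 in replicate 1 and 3.78 in replicate 2 (mean 3.72 ± 0.0768), and 3.85 in the second quantification. Their aligned coding bases were 62.2% identical. Of the 5 FHL genes, 3 reached 1 TPM in both libraries. Fhl3 stood at 4.75 ± 0.198 TPM, and Fhl4 and Fhl5 each had a mean of 0.0600 TPM. The 10 listed partners of FHL proteins were all present, with a median of 153 ± 9.16 TPM, and were led by Ckm, the muscle creatine kinase, at 1305 ± 111 TPM and Ttn, followed by Mybpc3, the cardiac myosin-binding protein C, at 652 ± 46.6 TPM and Pfkm, the muscle phosphofructokinase, at 355 ± 30.4 TPM.

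Fhl2 was read from both of its main first exons. Fhl2-201, which starts at position 43163961 of chr1, held 68.2% and 67.9% of the gene in replicates 1 and 2, and Fhl2-202, which starts at 43196984, held 31.6% and 31.7%. The libraries thus lay within a percentage point of each other for each transcript. The second quantification also put Fhl2-201 first, at 54.5% ± 0.260 against 45.5% ± 0.260. Both transcripts have 6 exons and the same 279 codons.

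Fhl1-201, with 280 codons, was the leading transcript of Fhl1, at 76.2% ± 2.43 in the main quantification and 58.4% ± 1.99 in the second. Fhl1-207, annotated with an incomplete reading frame, held 15.6% and 22.3% in replicates 1 and 2, and 9.82% ± 5.05 in the second quantification. The longer Fhl1-203, with 323 codons, includes a coding exon of 200 bases at chrX:56791239-56791438. Transcripts with that exon made up 0.870% ± 0.741 of those spanning it in the main quantification and 9.74% ± 1.33 in the second. Fhl1-206, which has the 280 codons of Fhl1-201 in length but another first exon, was listed at 0 in the main quantification and held 14.3% ± 2.19 in the second.

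**Figure D2:**
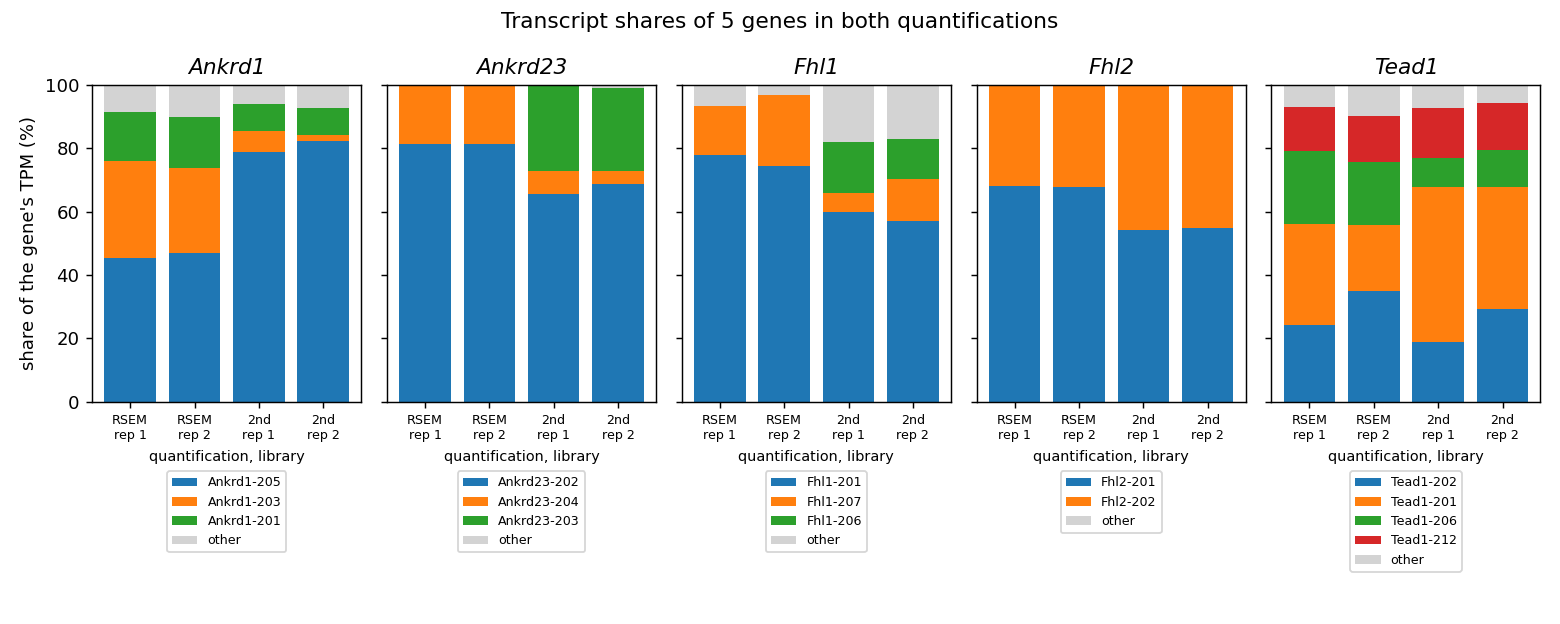
Share of each gene's TPM (percent) held by its named transcripts in 5 genes, with 1 stacked bar per library and quantification. The Fhl2 bars of both libraries are alike within a quantification, while Ankrd1-203 falls from 28.6% in the main quantification to 4.30% in the second and the order of Tead1-201 and Tead1-202 in replicate 2 differs between quantifications.

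The CCN genes were the least abundant of the well-detected genes, and Ccn2 was the one gene of the 10 that differed by 2-fold between the hearts. CCN1 and CCN2 are secreted proteins that bind integrins and the matrix, and both genes are standard readouts of YAP and TAZ. Ccn1 (ENSMUSG00000028195.4, chr3:145646976-145649981, minus strand) had 2002 and 1786 expected counts, or 29.98 and 28.35 TPM, with a mean of 29.2 ± 1.15 TPM and rank 1853. Ccn2 (ENSMUSG00000019997.11, chr10:24595442-24598683, plus strand) had 1838 and 874 expected counts, or 23.7 and 13.0 TPM, with a mean of 18.3 ± 7.54 TPM and rank 2899. Ccn1 was therefore close in both hearts, and Ccn2 was high in replicate 1 and low in replicate 2.

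To compare the hearts, rounded counts were scaled with the TMM factors of edgeR, and a gene was called when it had 200 or more summed counts, a ratio of 2-fold or more and an exact Clopper-Pearson interval, leaving 0.1% outside, that excluded equality. The interval covers counting error only. Under this rule 118 of 10960 genes were called, 1.08%, of which those higher in replicate 1 made up 0.858% and those higher in replicate 2 made up 0.219% of the genes tested. Of the 9 members with enough counts, 1 was called. Ccn2 was 2.03-fold higher in replicate 1, a log2 ratio of replicate 2 to replicate 1 of -1.02 (interval -1.22 to -0.82). That is a larger absolute ratio than 99.0% of tested genes had. With libraries scaled to total mouse gene counts the ratio was -0.9997, just short of 2-fold, and Ccn2 was then not called.

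The deposited credibility intervals of Ccn2, whose level is not given in the sources used here, were 22.0 to 25.0 TPM and 11.5 to 14.3 TPM and did not overlap. On the TPM scale the log2 ratio was smaller, -0.86. The short Ccn2-202, 343 bases long, was given 3.29% of the gene's TPM in replicate 1 and 12.4% in replicate 2, which lowers the mean transcript length used for the gene. In the second quantification, which listed Ccn2-202 at 0, the log2 ratio of scaled counts was -1.03. Ccn2-201, with 348 codons, led the gene at 88.6% ± 7.34 and 95.7% ± 1.03 in the main and second quantifications.

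Other genes moved between the hearts in the same direction as Ccn2, and their part in its difference was not tested. All 11 immediate early genes with enough counts were lower in replicate 2, with a median log2 ratio of -0.94, against 0.01 for all tested genes. Of the 11, 5 were called, against 1.08% of all tested genes. These 5, chosen here after their values were seen, were Dusp1, Fos, Egr1, Atf3 and Fosb. Their widest ratio was that of Fos, the transient AP-1 subunit, with 529 and 64 expected counts. The summed level of the 12 listed immediate early genes was 127 TPM in replicate 1 and 66.5 TPM in replicate 2, and none was listed at 0. All 5 tested epicardial markers were also lower in replicate 2, with 2 called (Aldh1a2 and Wt1) and a summed level of the 6 markers of 23.9 and 13.3 TPM. Of the 7 macrophage markers tested, 4 were lower and 3 higher in replicate 2, with a median log2 ratio of -0.06, and 2 were called, Lyz2 and Adgre1, both lower. The summed level of the 8 markers was 131 and 73.3 TPM, of which Lyz2 held 88.2 and 29.2 TPM. The 8 fibroblast markers, by contrast, had a median log2 ratio of 0.01, none called, and summed levels of 392 and 424 TPM. All 8 cardiomyocyte markers were higher in replicate 2, with a median log2 ratio of 0.09 and none called. Of the 8 endothelial markers 5 were lower and 3 higher (median -0.11), and of the 8 mural markers 4 were lower and 4 higher (median 0.05).

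The other CCN genes were low. Ccn3 stood at 1.69 ± 0.297 TPM, and Ccn5, at 0.535 ± 0.276 TPM, was the next. Ccn4 had 0.375 ± 0.106 TPM and Ccn6 1 and 0 expected counts. The log2 ratio of Ccn2 to Ccn1 was -0.34 in replicate 1 and -1.12 in replicate 2 (mean -0.73 ± 0.554), so Ccn1 was higher in both hearts. Their aligned coding bases were 61.2% identical.

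The remaining 8 tested genes differed by less than 1.5-fold between the hearts. Ankrd1 was higher in replicate 2, with a log2 ratio of 0.24 (interval 0.20 to 0.28), and Ankrd23 was lower, at -0.26 (-0.32 to -0.19). These sister genes thus lay on opposite sides of equality in these 2 libraries. Of all tested genes, 79.8% had a smaller absolute ratio than Ankrd1 and 81.8% a smaller one than Ankrd23, and the rest did not. The intervals leave out the spread between animals, so the opposite signs were not tested against it. Fhl2 was slightly higher in replicate 2, at 0.06 (0.03 to 0.10), while Xirp2, at -0.10 (-0.13 to -0.07), and Xirp1, at -0.14 (-0.21 to -0.07), were slightly lower. The intervals of Tead1 at -0.04 (-0.10 to 0.02), Fhl1 at -0.07 (-0.18 to 0.05) and Ccn1 at -0.11 (-0.27 to 0.04) included equality. The counting interval excluded equality for 6 of the 9 genes, against 18.1% of all tested genes. These intervals narrow as counts rise, so a small ratio of a highly counted gene can exclude equality. The median absolute log2 ratio was 0.11 for the 9 genes and 0.11 for all tested genes. The call at 1.5-fold named Ccn2 alone, against 3.53% of tested genes.

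**Figure D3:**
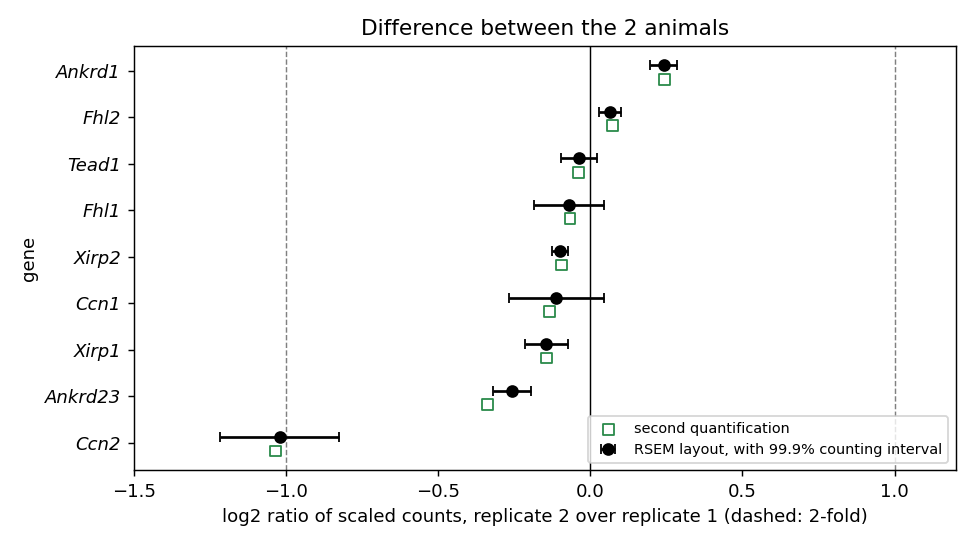
Log2 ratio of scaled counts, replicate 2 over replicate 1, for the 9 tested genes, with black circles and bars for the exact counting intervals for the main quantification, green squares for the second and dashed lines at 2-fold. Ccn2 lies at -1.02, beside the dashed line, and the other 8 genes lie between -0.26 and 0.24 in the main quantification.

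Tead1 was the dominant TEAD gene of these hearts. Its protein binds the MCAT element of muscle genes and carries YAP or TAZ to their targets. Tead1 (ENSMUSG00000055320.17, chr7:112679318-112906807, plus strand) had 13876 and 13032 expected counts, or 66.4 and 65.9 TPM, a mean of 66.2 ± 0.318 TPM and rank 784. The libraries were closely alike, with an SD of 0.481% of the mean. The second quantification gave a lower mean of 52.5 TPM.

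Per length, Tead1 stood 16.4-fold above Tead3, which had 4.09 ± 0.849 TPM. It stood 29.7-fold above Tead2, at 2.25 ± 0.438 TPM, and 59.8-fold above Tead4, at 1.14 ± 0.361 TPM. In the second quantification Tead1 exceeded Tead2 by a smaller factor, 15.9-fold, and Tead2, at 3.36 TPM, stood above Tead3, at 2.95 TPM. Tead1 was the higher gene of all 3 pairs in both libraries.

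Its cofactors were present at lower levels. Yap1 stood at 31.1 ± 1.85 TPM and Wwtr1, which encodes TAZ, at 17.6 ± 0.134 TPM. Vgll4, which encodes a competitor of YAP for TEAD, stood at 7.24 ± 0.771 TPM and Vgll3 at 0.670 ± 0.0566 TPM. Vgll1 was listed at 0 in both libraries. Of the 6 cofactor genes 3 reached 1 TPM in both.

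The Hippo cascade was broadly expressed, with 16 of 17 genes at 1 TPM or more in both libraries and a median of 8.30 ± 0.148 TPM. Nf2, encoding the membrane-proximal activator merlin, was highest at 28.0 ± 0.382 TPM. Amotl1 and Amotl2, encoding angiomotin-like proteins that hold YAP in the cytoplasm, stood at 22.1 ± 0.728 and 20.4 ± 0.877 TPM, and the kinase gene Taok1 at 21.5 ± 0.141 TPM. None of the 16 tested Hippo genes was called between the hearts, against 1.08% of all tested genes. Their median log2 ratio was -0.07, against 0.01 for all tested genes.

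Of 22 genes in a published YAP and TAZ target signature, 20 reached 1 TPM in both libraries, with a median of 9.01 ± 0.311 TPM. Ankrd1 led it, followed by Ccn1, Amotl2 and Crim1, which encodes a transmembrane BMP antagonist and stood at 19.8 ± 0.919 TPM. Of the 20 tested, 13 were lower and 7 higher in replicate 2, and Ccn2 was the 1 called, against 1.08% of all tested genes. Their median log2 ratio was -0.05, and Ankrd1, the top gene of the signature, was higher in replicate 2.

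**Figure D4:**
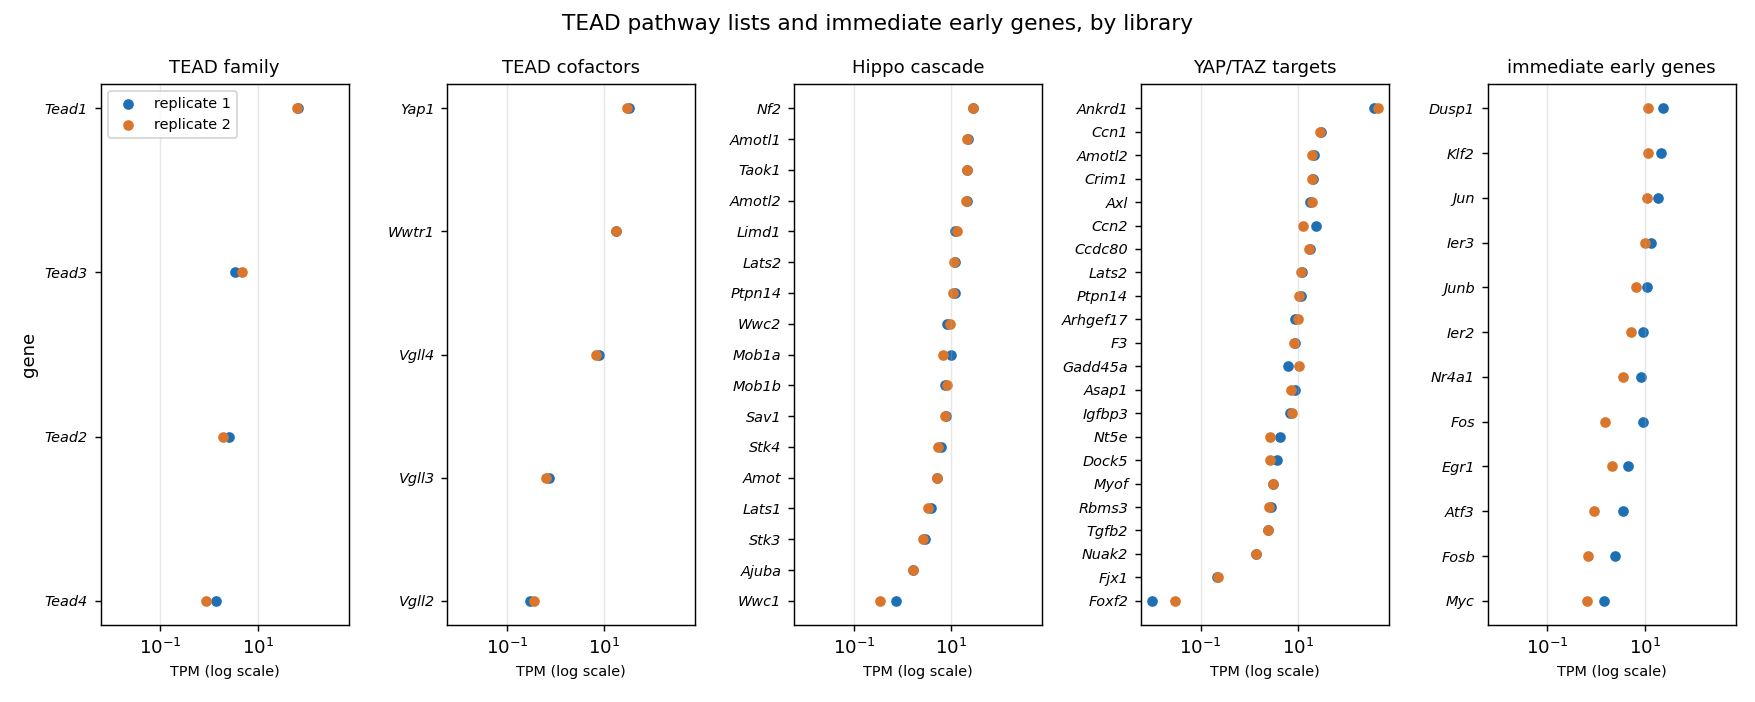
TPM on a log scale in each library for the TEAD family, its cofactors, the Hippo cascade, YAP and TAZ targets and immediate early genes, with 1 dot per library. Tead1 lies far above Tead2, Tead3 and Tead4, and all 12 immediate early genes lie lower in replicate 2, while Vgll1, at 0 TPM, cannot be drawn on this axis.

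Tead1 was split over more transcripts than any other of the 10 genes, with 15 annotated. In the main quantification Tead1-202, of 411 codons, held 24.2% and 34.9% of the gene in replicates 1 and 2, and Tead1-201, of 436 codons, held 31.8% and 21.04%. The leading transcript was thus Tead1-201 in replicate 1 and Tead1-202 in replicate 2. The second quantification placed Tead1-201 first in both, at 48.9% and 38.6% against 18.9% and 29.1% for Tead1-202. Tead1-206, with 436 codons and another first exon, held 21.3% ± 2.38 in the main quantification and 10.5% ± 1.81 in the second. Tead1-212, with 357 codons, held 14.3% ± 0.346 and 15.3% ± 0.511.

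Summed over transcripts, 3 optional coding exons of Tead1 were seen. A 63-base exon was held by 56.5% of spanning TPM in replicate 1 and 41.7% in replicate 2 (mean 49.1% ± 10.5), and by 56.8% ± 6.62 in the second quantification. A 12-base exon was held by 74.9% and 63.9% (mean 69.4% ± 7.83), and by 74.5% ± 8.02 in the second. Both were higher in replicate 1 in both quantifications. A 174-base exon at chr7:112876075-112876248 was held by 85.3% ± 0.158 and 84.3% ± 0.617, and showed no such difference. All 3 lengths are multiples of 3.

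The 63-base exon lies 89 bases from another exon of 63 bases that resembles it, and the pair falls in the part of the reading frame that encodes the TEA domain, the DNA-binding domain of the protein. Tead1-201 holds both exons and Tead1-202 holds only the second. Aligned base by base with no gap, they are identical at 44 of 63 bases, 69.8%. They are printed because about the same share of Tead1 RNA held and lacked the first, with capitals for the identical bases.

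Tead1 first exon of the pair (chr7:112841888-112841950): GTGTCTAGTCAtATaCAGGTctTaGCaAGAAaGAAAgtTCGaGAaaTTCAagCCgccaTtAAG

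Tead1 second exon of the pair (chr7:112842040-112842102): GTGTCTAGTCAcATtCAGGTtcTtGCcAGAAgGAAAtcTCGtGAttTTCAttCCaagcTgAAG

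The 12-base exon follows the second of the pair in the transcript, and is shown in capitals between its neighbours because its share too was higher in replicate 1.

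Tead1 12-base exon (chr7:112856053-112856064): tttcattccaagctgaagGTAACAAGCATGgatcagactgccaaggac

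The reference sequence around the start sites was searched for the binding letters of factors known to drive these genes. The windows, from RefSeq on GRCm38.p6, run from 250 bases before to 50 after a gene's start, and 7 of the 10 genes matched at least 1 window. The searched letters were GGAATG, the core bound by TEAD factors, the CArG box bound by SRF, the MEF2 box, and TATAAA, each on both strands. No match overlapped one of another motif. A match describes letters only, since these data hold no binding measurement.

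The TEAD core was found at 2 places before the start of Ankrd1 and at 1 before that of Ccn1 and of Ankrd23. It occurs in 14.7% of all 32851 windows, and 2 or more times in 1.36%. The sites are printed along each gene's strand, since Ankrd1 and Ccn1 are the targets of TEAD that stood highest here, with the core or its reverse complement CATTCC in capitals and the distance from the RefSeq start to its first base in the name.

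Ankrd1 site at -210 (chr19:36120037-36120066): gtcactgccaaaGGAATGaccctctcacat

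Ankrd1 site at -123 (chr19:36119950-36119979): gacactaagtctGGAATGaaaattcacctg

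Ccn1 site at -103 (chr3:145650071-145650100): cgcgccaaccaaCATTCCtgagatgtttga

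Ankrd23 site at -120 (chr1:36535842-36535871): cccagtgggccaCATTCCcagaacggtatt

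Both Ankrd1 sites lie upstream of the RefSeq start at 36119844 and also of the start shared by Ankrd1-201 and Ankrd1-203 at 36119910, but inside the first exon of Ankrd1-205, whose start is annotated at 36120099. The leading transcript of Ankrd1 therefore contains in its first exon the letters that precede the start of the other transcripts. The Ankrd23 site precedes the start of Ankrd23-204, the transcript with the smaller share. A window that covers the start of the leading Ankrd23-202 also held the core, at 36 bases after the RefSeq start.

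Both Fhl2 windows held a CArG box before the RefSeq start, and the box occurs in 1.63% of all windows. The MEF2 box, found in 1.86% of windows, occurred before the start of Xirp2. These sites are printed because Fhl2 stood highest of the 10 genes and was read from both of its main first exons, with the box in capitals.

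Fhl2 site at -31, before Fhl2-201 (chr1:43163973-43164002): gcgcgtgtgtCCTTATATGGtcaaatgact

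Fhl2 site at -96, in the window of the farther start (chr1:43196838-43196867): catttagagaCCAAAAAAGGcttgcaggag

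Xirp2 site at -74 (chr2:67445918-67445947): agctcagttcCTAAAAATAGgtgctaggtt

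The second Fhl2 box lies within the first exon of Fhl2-202, which GENCODE starts at 43196984, upstream of the RefSeq start at 43196761. The box therefore does not precede the start of Fhl2-202. Fhl2-203, the transcript that starts at 43196761, held 0.29% of the gene in the main quantification and 0% in the second. The whole 250 bases before the start of Fhl2-201 (chr1:43163962-43164211) are given for context, since this start carried most Fhl2 RNA in both quantifications, with the CArG box in capitals near the end.

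Fhl2-201 upstream: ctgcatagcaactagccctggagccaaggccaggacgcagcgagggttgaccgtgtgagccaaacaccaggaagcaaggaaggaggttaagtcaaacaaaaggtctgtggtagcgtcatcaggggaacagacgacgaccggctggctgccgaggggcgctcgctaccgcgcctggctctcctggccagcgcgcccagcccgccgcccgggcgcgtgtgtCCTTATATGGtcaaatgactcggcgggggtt

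The same stretch before Ccn1 (chr3:145649986-145650235) is given because it pairs a TEAD core with a TATAAA, both in capitals. TATAAA starts 25 bases before the RefSeq start and occurs in 13.6% of all windows.

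Ccn1 upstream: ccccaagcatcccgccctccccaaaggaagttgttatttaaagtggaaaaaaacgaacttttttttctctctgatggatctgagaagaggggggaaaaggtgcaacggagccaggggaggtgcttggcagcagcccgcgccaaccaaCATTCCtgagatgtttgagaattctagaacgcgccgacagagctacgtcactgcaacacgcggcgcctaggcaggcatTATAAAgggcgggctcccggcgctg

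A CArG box also occurred at -102 in 1 of the 2 Fhl1 windows, which lies apart from the start of the leading Fhl1-201 at 56731787. The window of Ankrd2 held a TATAAA at -29 and none of the other motifs.

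**Figure D5:**
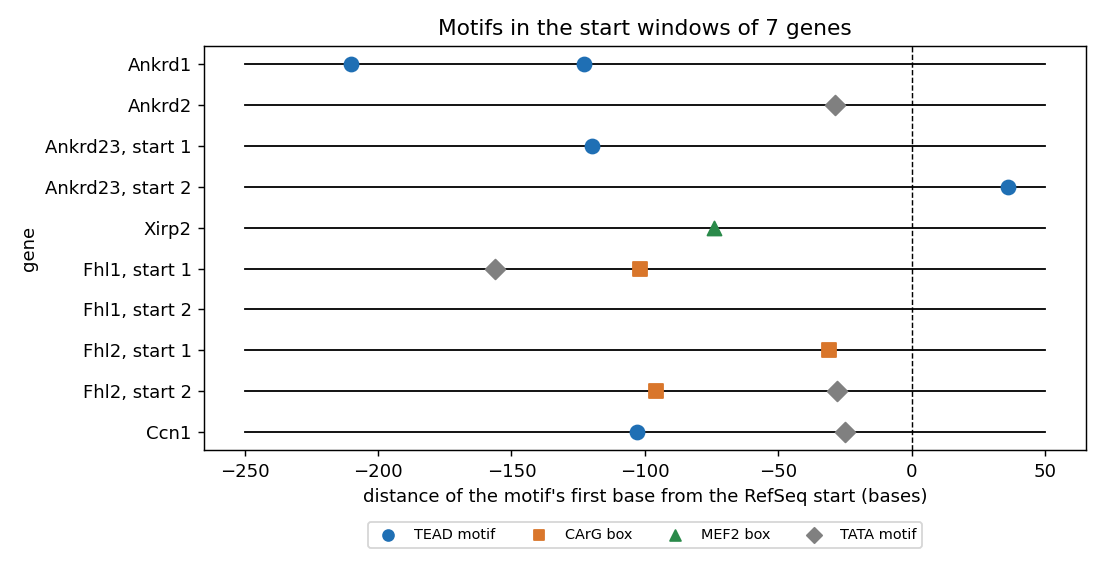
Distance in bases of each motif's first base from the RefSeq start in the windows of 7 genes, with 1 line per window and the start dashed at 0. Ankrd1 shows TEAD cores at -210 and -123, Ccn1 at -103, and both Fhl2 windows show a CArG box, at -31 and -96.

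A list of 9 muscle transcription factor genes included Srf and Mef2 genes, whose factors bind the CArG and MEF2 boxes. All 9 listed genes reached 1 TPM in both libraries, with a median of 28.5 ± 2.89 TPM. Mef2a was highest at 50.9 ± 2.26 TPM, followed by Gata4 at 46.9 ± 5.73 TPM, Mef2d at 46.6 ± 4.47 TPM and Srf, the CArG-binding factor, at 37.1 ± 0.424 TPM. None was called between the hearts, against 1.08% of all tested genes.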

How the data were processed

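The authors deposited, per the file headers, gene and transcript tables in the column layout of RSEM with expected counts, TPM, FPKM and TPM credibility intervals, and, for transcripts, the percent of the gene's TPM. A second deposited table per library has estimated counts and TPM in the layout of kallisto. Per the labels and listings the build is mm10 with GENCODE M21. Libraries were stranded, made from 300 ng of ribosome-reduced RNA with ERCC spike-ins. For the aligner and for tool versions, nothing is given in the sources used here. Loss of reads with CAST alleles against this build was not analysed here.

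Expected counts, 42.13 M and 40.07 M per library, were rounded before the between-animal rule. Spike-ins, 26248 rows with numeric identifiers (1 and 0 counts) and 1 other row were left out. Scaling used the TMM method of edgeR 4.0.16, with DESeq2 1.42.0 size factors as an alternative, in R 4.3.3. A count of 0 was set to 3. The biological coefficient of variation of edgeR was 0.121 over 14694 genes. Other steps used Python 3.11.15, pandas 2.3.3, numpy 2.4.6 and scipy 1.17.1. The TMM scaling and the between-animal rule were tested on simulated counts, and the other steps were not. Reads carry no molecular identifiers here, so intervals cover counting error only. Exon shares are the TPM of transcripts that hold a segment over that of transcripts that span it.

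All 10 genes are named, and up to 4 genes per list by mean TPM, any listed at 0, and transcripts with 10% or more of a gene in both libraries of either quantification. The genes and lists were chosen with earlier results of these data known. Segments, motifs, overlapping genes and further transcripts were chosen after values were seen. RefSeq windows for Xirp1, Ccn2 and Tead1 were not used here.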

Additional observations from a re-analysis of the deposited data

How the results depend on the processing

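The order of the 10 genes was the same under the second quantification, FPKM, TPM over nuclear protein-coding genes, and each library alone. The levels themselves depended on the scale. Over nuclear protein-coding genes only, mean TPM was 1936 for Fhl2, 1098 for Ankrd1 and 0.401 for Ankrd2, against 702, 398 and 0.145. On that scale too, 9 genes reached 1 TPM in both libraries. Leaving out either library gave 9 genes at 1 TPM or more (9 to 9), 8 of 9 pairs with the first gene higher (8 to 8) and 8 leading transcripts over 50% (8 to 8). The count of genes differing between the hearts needs both libraries, so no library could be left out there. Of the 10 genes, 1 differed by 2-fold in the report's setting and under every alternative except total mouse gene counts, which gave 0, because the ratio of Ccn2 then fell just short of 2-fold. Over all genes, 118 differed, against 314 with a minimum of 50 summed counts, 470 with no minimum and 387 at 1.5-fold, settings that test more genes or ask for less. Of 36 alternative ratios of the 9 tested members, 35 kept their direction and side of the threshold, and the exception was Ccn2 with total counts. Ankrd2, not tested, went from -0.53 to -2.26 in the second quantification. No ratio between hearts changed sign. Transcript shares depended on the quantification, which changed the leading transcript of Ankrd2 and Tead1, and the order of Tead2 and Tead3, and the cause was not tested. No paired analysis was possible because the series has a single group. Depth limits Ankrd2, whose 6 and 4 counts allowed no comparison between hearts.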

Other observations

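Other heart genes listed as load-sensitive were abundant in both hearts, and whether load set their levels was not tested. All 6 listed load response genes reached 1 TPM in both libraries, with a median of 358 ± 19.3 TPM. None was called between the hearts, against 1.08% of all tested genes. Of the 6, 3 were lower and 3 higher in replicate 2. The widest ratios, named after values were seen, were those of Rcan1 at -0.61 (interval -0.75 to -0.47) and Nppb at -0.47 (-0.62 to -0.32), on the log2 scale. Csrp3, which encodes the muscle LIM protein of the Z-disc, stood at 868 ± 62.7 TPM, Nppa, the atrial natriuretic peptide gene, at 569 ± 66.7 TPM, Myh7, the slow myosin heavy chain gene, at 521 ± 21.01 TPM and Acta1, the skeletal alpha-actin gene, at 194 ± 17.5 TPM. Fast skeletal muscle markers were low beside them, with a median of 1.69 ± 0.244 TPM over 10 genes, of which Myl1 was highest at 14.5 ± 0.113 TPM. Endothelial and mural markers had medians of 33.2 ± 2.31 and 13.1 ± 1.91 TPM, and none of either list was called, against 1.08% of all tested genes.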
